A study of Gadus morhua with 47 samples.

Results

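Liver slices of Atlantic cod (Gadus morhua) kept with ethynylestradiol (EE2) at 10 nM were compared with slices kept with dimethyl sulfoxide (DMSO), the vehicle. The titles of the libraries chose the members, and 15 of the 47 libraries of the series belonged to these groups, 7 with EE2 and 8 with DMSO. The number in a title is the number of the fish, and slices of 7 fish (1, 2, 3, 4, 6, 7 and 8) were present in both groups, while fish 5 gave a DMSO slice only. Of the 7 fish, 4 were male and 3 (fish 3, 6 and 8) were female, with body weights from 346 g to 820 g and livers of 16 g to 93 g. Precision-cut slices are thin sections of living liver that keep hepatocytes beside the other cells of the organ. How long the slices were exposed and how old the fish were is not stated in the labels. The comparison asks which transcripts change in liver tissue at the lower of 2 EE2 doses.

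EE2 is a synthetic estrogen that binds the nuclear estrogen receptors. In the liver of egg-laying fish, estrogen turns on genes for yolk precursors (vitellogenins) and for eggshell proteins, which the blood carries to the ovary. Male liver has these genes but hardly uses them, so their rise is widely read as a sign of estrogen exposure. The deposited identifiers are not paired with gene names in the files, and 0 of them were found in the reference table, so the transcripts below carry no gene name and no role, and hepatocyte markers could not be checked. Most transcripts are named by their coding length and by their rank among the rises, rank 1 being the largest fold.

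The 8 DMSO libraries held 36.6 M to 58.6 M mapped segments (M, mega) and the 7 EE2 libraries 43.7 M to 53.1 M. A limit of 3 counts in a library corresponded to 0.0418 to 0.0914 CPM (counts per mega-count of the library, after scaling by TMM). The DMSO library of fish 2 stood apart, with a TMM factor of 0.678 against 0.897 to 1.27 in the other DMSO libraries and 0.832 to 1.27 with EE2. Between the slices of fish 2, 6717 of 17824 transcripts (37.7%) differed at least 2-fold, against 1205 to 3558 in the other fish. The difference went with coding length, with a median log2 difference (EE2 minus DMSO) of -0.412 in the shortest quartile of transcripts and 0.689 in the longest. Fish 7 had the strongest trend of the opposite sign, with medians of 0.298 and -0.372. The rank correlation with length was 0.353 in fish 2 and -0.405 in fish 7. It was also negative in fish 6 (-0.228), fish 3 (-0.208), fish 4 (-0.164) and fish 8 (-0.0848), and 0.0589 in fish 1. The EE2 slice of fish 2 had the highest share of segments placed on no transcript, 57.9% against 41.8% to 49.7% in the other 14 libraries. Other treatments held 3 more libraries of this kind (fish 6 with BaP 10 nM, fish 7 with BaP 1 µM, fish 8 with Mix 1 µM; BaP is benzo[a]pyrene, and Mix is BaP with EE2). They share the fit, and results are given below with and without them.

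With EE2 10 nM, 50 transcripts rose and 1 fell (edgeR quasi-likelihood test over all libraries with fish as a term, Benjamini-Hochberg adjusted p under 0.05). Together they were 0.286% of the 17824 transcripts tested, the rises 0.281% and the fall 0.00561%. By size, 7 rises were under 2-fold, 15 lay between 2-fold and 4-fold, 2 between 4-fold and 8-fold, 15 between 8-fold and 32-fold, and 11 at 32-fold or more. Few transcripts of any kind lay between 4-fold and 8-fold, and 2 of the 29 tested there were called. The share called as rises went up with size, from 7 of 17427 under 2-fold and 15 of 328 between 2-fold and 4-fold. It was 15 of 29 between 8-fold and 32-fold and 11 of 11 above. The fold is part of the test, so these shares are a description only, and the transcripts tested were counted by size in either direction. When only these 15 libraries were fitted with the same terms, 10 transcripts rose and 0 fell, and with fish as a random term over all libraries 21 were called. On the log2 scale the 50 rises had a median of 3.08, also with the 1 transcript without DMSO counts set at its bound, while the median over all transcripts was -0.0255. In bulk tissue, a change in the number of cells of a type and a change of RNA per cell cannot be told apart.

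The rises are given by their level in DMSO slices, as a description. The DMSO level is also the base of the fold, a transcript under 0.1 CPM passed the filter on low counts mostly through other libraries, and a small rise from a very low level could hardly be called. CPM values are not divided by length, so the bands describe how many reads a transcript had, not its molar amount. Below 0.1 CPM in DMSO, 16 of 416 transcripts rose (3.85%), by 4.02 to 8.67 on the log2 scale with a median of 5.44. From 0.1 to 1 CPM, 10 of 3419 rose (0.292%), with a median of 4.09. From 1 to 10 CPM, 11 of 6238 rose (0.176%), with a median of 1.23, and from 10 to 100 CPM, 12 of 6567 (0.183%), with a median of 1.18. At 100 CPM or more, 1 of 1184 rose, by 0.71. The rises from 1 CPM up spanned 0.71 to 4.87 on the log2 scale.

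**Figure D1:**
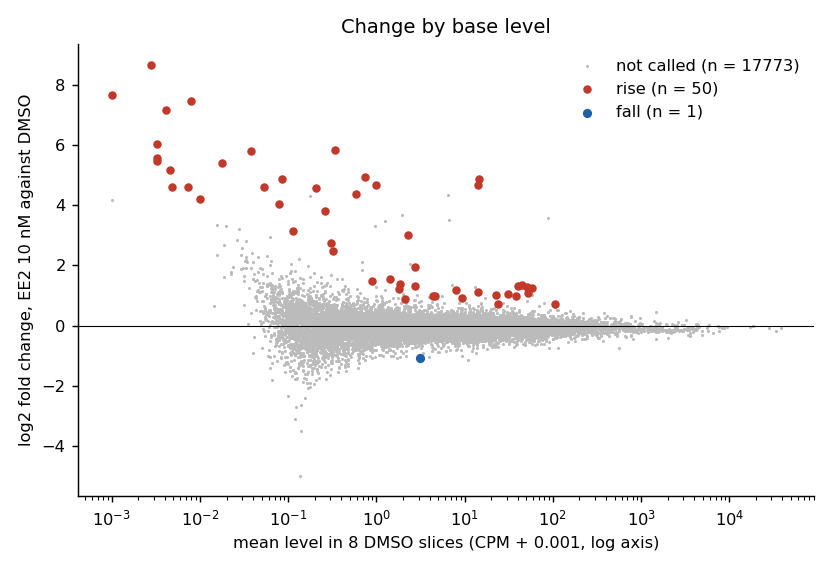
Log2 fold change of EE2 10 nM against DMSO (vertical axis) by mean level in the 8 DMSO slices (horizontal, CPM + 0.001 on a log axis) for 17824 transcripts, with the 50 rises in red and the 1 fall in blue. The largest rises sit at the left, below 1 CPM, and most rises of expressed transcripts lie near 1 on the log2 scale.

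The transcript that gained most CPM was ENSGMOT00000018724.1, with a coding length of 4902 bases. In DMSO slices it lay between 5.08 and 52.9 CPM with a median of 8.965, and in EE2 slices between 35.5 and 3523 CPM with a median of 513. The groups overlapped only through the DMSO slice of fish 3, at 52.9 CPM, and the EE2 slice of fish 6, at 35.5 CPM. The mean was 14.7 ± 15.7 CPM in DMSO slices (SD, n = 8) and 882 ± 1240 CPM in EE2 slices (SD, n = 7). The fitted log2 fold change of 4.87 ± 0.86 (SE) passed the edgeR test at an adjusted p of 0.00121. Every fish was higher with EE2, but by very different amounts. The log2 difference was 1.51 in fish 3 and 1.52 in fish 6, both female, 3.82 in fish 4, 5.89 in fish 7, 6.3 in fish 1, 7.1 in fish 2 and 7.96 in fish 8, also female. In the fit of only these 15 libraries its log2 fold change was 5.05, and it missed the threshold in edgeR, at an adjusted p of 0.141 (0.185 without DMSO of fish 2).

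In the other treatments with EE2, some fish kept their place in this transcript and others did not. Fish 8 had the highest level with EE2 1 µM (9751 CPM), with Mix 10 nM (4514 CPM) and with Mix 1 µM (12920 CPM, in a library that stands apart). The lowest levels were those of fish 5, which had no EE2 10 nM slice, with EE2 1 µM (30.5 CPM) and Mix 10 nM (34.9 CPM), and of fish 6 with Mix 1 µM (65.9 CPM). Fish 3, at 151 CPM with EE2 10 nM, was the next highest after fish 8 with EE2 1 µM (1837 CPM) and Mix 1 µM (4426 CPM). Fish 2, at 1290 CPM with EE2 10 nM, was at 343 CPM with Mix 1 µM. Without EE2 its mean was 10.7 CPM ± 11.5 (SD, n = 7) with BaP 10 nM and 10.3 CPM ± 16.4 (SD, n = 7) with BaP 1 µM.

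Among rises found in every fish, the largest fold at an average of 1 CPM or more was that of ENSGMOT00000004802.1, with a coding length of 957 bases and rank 6. Its DMSO slices held 0 to 1.32 CPM with a median of 0.162, and its EE2 slices 7.73 to 49.7 CPM with a median of 15.9, so that the groups did not overlap. Its log2 fold change of 5.82 ± 0.67 (SE) passed the edgeR test at an adjusted p of 6.18e-07, and pooled counts rose from 139 to 7069. Fish 3 had the highest level in both groups, and fish 6 the lowest with EE2. Under all 38 alternative settings it passed the test, with log2 fold changes between 5.5 and 6.77.

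**Figure D2:**
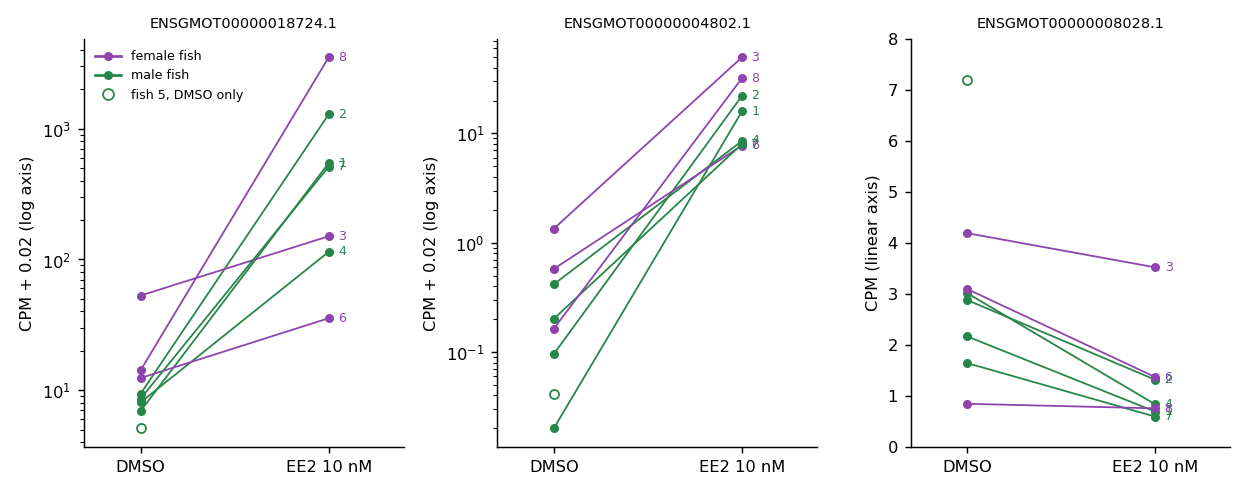
Levels of 3 transcripts in the DMSO and EE2 10 nM slices of each fish (lines join slices of 1 fish, numbers are fish, the open circle is the DMSO slice of fish 5), on log axes in CPM + 0.02 for the first pair and a linear axis in CPM for the third. ENSGMOT00000018724.1 and ENSGMOT00000004802.1 were higher with EE2 in 7 of 7 fish, and ENSGMOT00000008028.1 was lower in 7 of 7.

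Groups that did not overlap at all were rare. The EE2 slices lay above every DMSO slice for 6 of the 50 rises, against 8 of all 17824 transcripts (0.0449%), and they lay below every DMSO slice for 0 transcripts. Besides ENSGMOT00000004802.1, these were rank 12 (3732 bases), rank 20 (1128 bases), rank 21 (1188 bases), rank 41 (795 bases) and rank 47 (651 bases). Rank 21 had the smallest adjusted p of all, 1.13e-09, at a log2 fold change of 4.36 ± 0.38 (SE). Its level was 0.292 to 0.939 CPM in DMSO slices and 3.53 to 27.2 CPM in EE2 slices. Such a separation could be narrow at a low and at a high base level. Rank 12 had at most 1.58 CPM with DMSO and at least 1.77 CPM with EE2. Rank 41 had at most 71.2 CPM with DMSO and at least 87.2 CPM with EE2, at a log2 fold change of 1.07 ± 0.18 (SE).

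The 16 near-silent transcripts rested on very few DMSO counts. Rank 2 (690 bases) had 0 counts in the 8 DMSO libraries and 191 with EE2, which is at least 75.5-fold higher when a floor of 3 counts is set over the DMSO group. For 8 further rises the DMSO libraries held 1 to 3 counts in all. Rank 3 (930 bases) had 4 counts with DMSO and 1172 with EE2, a ratio of scaled counts of 347 with an exact 95% interval of 135 to 1277 that covers counting error only. Its EE2 levels were 19.6 CPM in fish 3, 4.49 in fish 4, 2.63 in fish 2, 1.77 in fish 6, 0.119 in fish 1 and 0 in fish 7 and fish 8. Only 2 of the 16 were higher in all 7 fish. The pattern is one of large rises in some fish and no detected level in others.

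Fish 7 and fish 8 accounted for most of these missing responses. In the EE2 slice of fish 7, 13 of the 50 rises had 0 counts, and in that of fish 8, 12 did, against 0 to 2 in the other 5 fish. The rises higher with EE2 numbered 37 in fish 7 and 38 in fish 8, against 46 to 50 in the others, and their median log2 difference was 0.64 and 0.843 against 1.43 to 2.18. Depth was no lower in these slices, at 52.2 M and 53.1 M segments, the deepest with EE2. Fish 7 (a male) and fish 8 (a female) had the highest body weights, 820 g and 635 g, and TMM factors of 1.13 and 1.27 with EE2; the part of these values in the result was not tested.

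The same transcripts were also scarce in other EE2 slices of these fish. In the EE2 10 nM slice of fish 8, 14 rises had under 3 counts. Of these 14, 11 were under 3 counts in fish 8 with EE2 1 µM, 13 with Mix 10 nM and 14 with Mix 1 µM (the library that stands apart), and 11 were so in fish 7 with Mix 10 nM. In the slices of the other fish in these 3 treatments, 0 to 5 of the 14 were. Other rises were high in these fish. Rank 12 (3732 bases) reached 212 CPM in fish 1, 181 in fish 8, 49.3 in fish 2 and 27.6 in fish 7, but 1.77 in fish 6. Its 8 DMSO slices lay at 0.195 to 1.58 CPM. Rank 16 (870 bases) ran the other way, at 53.6 CPM in fish 6 and 52.1 in fish 3 against 0.424 in fish 7 and 0.519 in fish 8. The fish with the highest EE2 level therefore depended on the transcript. Each fish held the highest EE2 level of 2 to 16 of the 50 rises, fish 6 most often. The highest level did not always go with the largest difference from the DMSO slice. For rank 12 the log2 difference was 8.99 in fish 8 and 7.98 in fish 1, where the level was highest.

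**Figure D3:**
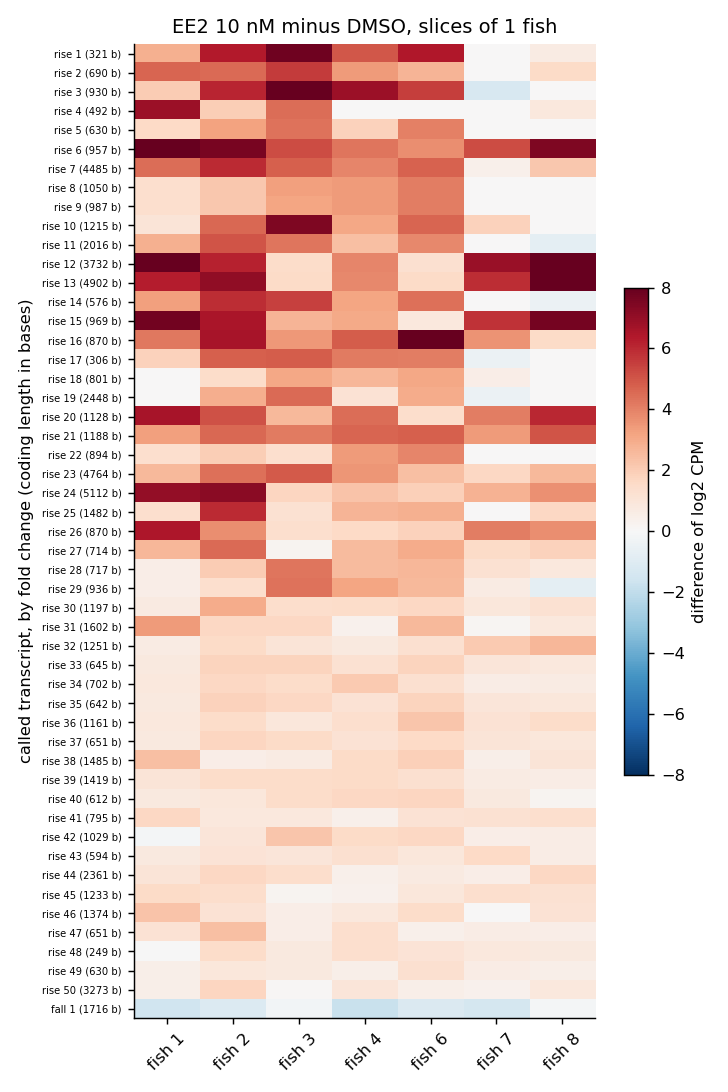
Difference of log2 CPM between the EE2 10 nM and DMSO slices of each of 7 fish (columns) for the 50 rises and the 1 fall (one line each, ordered by fold, with coding length). Red is higher with EE2; the upper part is pale in fish 7 and fish 8 for many transcripts but dark for a few, and the lower part is more evenly pale red.

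Rises of expressed transcripts were mostly smaller, and many were more even between fish. Of the 24 with at least 1 CPM in DMSO slices, 21 were higher in all 7 fish. These fish also gave the calls, so this count is a description only. A near-silent transcript without counts in either slice of a fish could not be higher there. Some of the 24 were very uneven. For ENSGMOT00000018724.1 the log2 difference ran from 1.51 in fish 3 to 7.96 in fish 8. For rank 15 it ran from 0.853 in fish 6 to 7.73 in fish 1. Ranks 33, 35 and 37, with coding lengths of 645, 642 and 651 bases, moved side by side. Rank 37 was at 34.7 to 93.1 CPM in DMSO slices and 70.2 to 223 CPM in EE2 slices, a log2 fold change of 1.25 ± 0.18 (SE). Ranks 33 and 35 changed by 1.34 ± 0.19 and 1.32 ± 0.20 (SE). All were lowest in fish 7 and highest in fish 6 with EE2. Near-identical transcripts may share reads in these counts, so these may not be separate responses. The same holds for ranks 8 and 9 (1050 and 987 bases), whose levels differed in 1 of 15 libraries. Rank 22 (894 bases) was close to them with EE2 in most fish, but at 0.245 CPM in fish 3 against 0.513 and 0.465 CPM. All 3 had DMSO counts in fish 3 only. The counts of rises in this text take each such transcript separately. Rank 45 (1233 bases), by contrast, was highest with EE2 in fish 1, at 123 CPM, and changed by 0.98 ± 0.15 (SE), at an adjusted p of 8.32e-05 in edgeR. Rank 15 (969 bases) combined a high base level with a large rise, with a mean of 14.3 ± 30.9 CPM in DMSO slices (SD, n = 8) and 138 ± 76.6 CPM in EE2 slices (SD, n = 7), but its DMSO slice of fish 6 was at 90.1 CPM and it lost its call without DMSO of fish 2 (edgeR adjusted p of 0.0792).

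No difference between the sexes passed the test. The interaction of sex with EE2 10 nM was called for 0 transcripts by edgeR. An unadjusted p under 0.05 was found in edgeR for 650 of 17824, less than the share of 0.05 reached with no difference at all. DESeq2 called 1 and limma with sample quality weights 1. Among the 50 rises the interaction (female minus male) was below 0 for 25, with a median of -0.00988 on the log2 scale. The fitted median rise was 3.42 in male and 2.75 in female fish. For ENSGMOT00000018724.1 the rise was 5.77 ± 1.06 (SE) in males and 3.02 ± 1.23 (SE) in females, and the difference of -2.76 ± 1.53 (SE) missed the threshold, at an adjusted p of 0.95 in edgeR. That does not show that the sexes responded alike.

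Libraries that are neither DMSO nor EE2 10 nM give a further reading of the lower EE2 dose, Mix 10 nM (6 slices) against BaP 10 nM (7 slices). There 41 transcripts rose (0.23% of those tested) and 0 fell. Of the 50 rises, 31 were called there (62%), which is 75.6% of that list, and 49 were above 0, with a median log2 fold change of 2.86. Both contrasts come from 1 fit with shared fish terms. The BaP 10 nM slice of fish 6 is a deviating library. Without the 4 deviating libraries, 54 of 17930 transcripts rose in this contrast, and 35 of the 50 rises were called. Transcripts under 0.1 CPM in DMSO passed the filter on low counts mostly through other libraries, which can include those with Mix 10 nM. As a description only, the share of the rises called was 14 of 16 for these and 8 of 10 from 0.1 to 1 CPM. It was 3 of 11 from 1 to 10 CPM and 5 of 12 from 10 to 100 CPM. Small rises of expressed transcripts thus often missed the threshold there, which does not show that they were absent. The 1 rise below 0 was rank 4 (492 bases), at -1.28. Its EE2 10 nM level was 7.4 CPM in fish 1 and 0 to 0.831 CPM in the other fish, and fish 1 had no Mix 10 nM slice.

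With EE2 1 µM, which was compared with the same DMSO slices, the 50 transcripts had a median log2 fold change of 3.26, beside 3.08 at 10 nM. ENSGMOT00000018724.1 changed by 5.6 ± 0.88 (SE) at 1 µM and ENSGMOT00000004802.1 by 6.28 ± 0.70 (SE). Between the EE2 doses, 0 transcripts were called by edgeR and by DESeq2. In edgeR 239 had an unadjusted p under 0.05, also less than a share of 0.05 of all 17824. The median difference of the 50 rises (1 µM minus 10 nM) was 0.206, and 36 of 50 were above 0, against 8884 of all 17824. Without the 4 deviating libraries 15 transcripts were called between the doses, and 4 when only the 2 EE2 groups were fitted.

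The 1 transcript that fell was ENSGMOT00000008028.1, with a coding length of 1716 bases. It lay at 0.845 to 7.19 CPM in DMSO slices, with a median of 2.95, and at 0.593 to 3.52 CPM in EE2 slices, with a median of 0.834. The groups overlapped through the DMSO slice of fish 8, at 0.845 CPM, and the EE2 slice of fish 3, at 3.52 CPM. Without fish as a term the log2 fold change was -1.27, and it was not called. The log2 difference was -1.81 in fish 4, -1.59 in fish 1, -1.41 in fish 7, -1.15 in fish 6 and -1.11 in fish 2, but -0.249 in fish 3 and -0.154 in fish 8. Its fitted log2 fold change of -1.09 ± 0.24 (SE) passed at an adjusted p of 0.0257 in edgeR. The call was lost in 19 of 38 alternative settings, with adjusted p from 0.00227 to 1, and in 6 of the 8 fits that left out a fish. It was not called in Mix 10 nM against BaP 10 nM, at -0.67 ± 0.26 (SE) and an edgeR adjusted p of 0.969. Nor was it called with EE2 1 µM against the same DMSO slices, at -0.80 ± 0.25 (SE) and an edgeR adjusted p of 0.475. In Mix 1 µM against BaP 1 µM it was at -0.24 ± 0.25 (SE), with an edgeR adjusted p of 0.999.

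Leaving out DMSO of fish 2 alone changed the calls little. Then 44 transcripts rose (0.247% of 17803) and 1 fell (0.00562%), of which 43 were among the 51 called with all libraries. The 8 lost rises had adjusted p between 0.0521 and 0.127 and included ranks 15, 18, 19, 25 and 26 among the large rises and ranks 44, 49 and 50 among the small ones. The 2 gained rises had coding lengths of 1026 and 909 bases, log2 fold changes of 0.80 and 1.58, and both were higher in 7 of 7 fish. The 1 fall stayed called, at -1.12 and an edgeR adjusted p of 0.0315, and no other fall was called. In this fit the EE2 slice of fish 2 was still compared through the other slices of that fish.

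The balance of directions counted over fish did turn when fish 2 was left out. With all 7 fish, 142 transcripts were higher in every fish (0.797%) and 91 lower in every fish (0.511%). Without fish 2, 565 were higher in the other 6 (3.17%) and 778 lower (4.36%). Counts over fewer fish are larger in any case, and the count was not repeated without another fish. Of the 50 rises, 32 were higher in all 7 fish, and 32 in the 6.

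**Figure D4:**
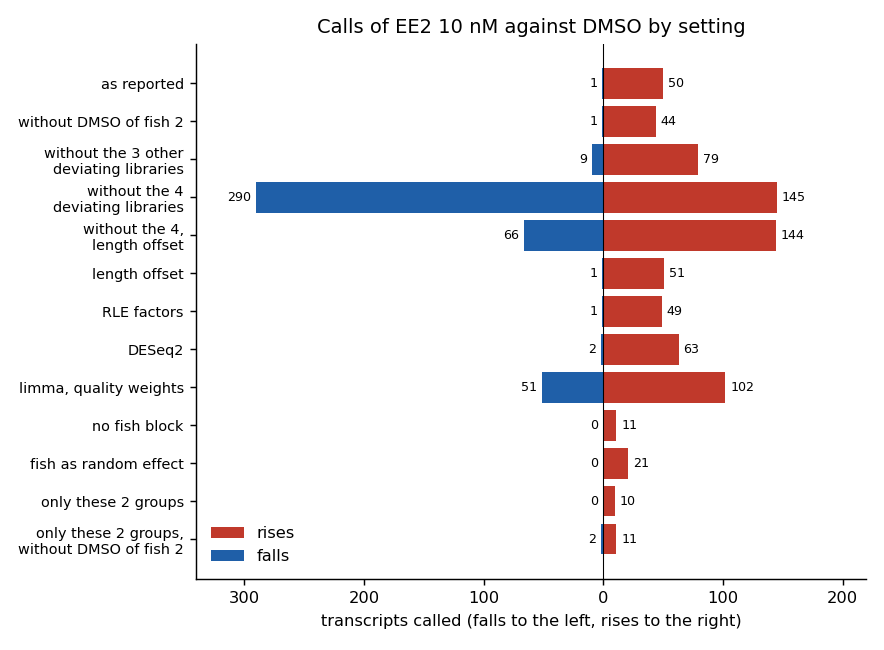
Number of transcripts called in EE2 10 nM against DMSO (rises in red to the right, falls in blue to the left) in the reported fit and under 12 other settings. Without DMSO of fish 2 there were 44 rises and 1 fall, without the 3 other deviating libraries 79 and 9, and without all 4 there were 145 and 290.

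Falls appeared in number when all 4 deviating libraries were left out, with 145 rises (0.809% of 17930) and 290 falls (1.62%). All 50 rises and the 1 fall were among them. With the 3 deviating libraries of other treatments left out and DMSO of fish 2 kept, a setting chosen after the data were seen, there were 79 rises and 9 falls. The falls were small, with a median of -0.549 on the log2 scale and 11 of 290 at 2-fold or more. By level in DMSO slices, 219 of the 290 lay between 10 and 100 CPM, where 6765 of all 17930 transcripts lay. At 100 CPM or more 13 of 1223 fell. Below 0.1 CPM 0 of 447 did, where a fall could hardly be called. The rises had a median of 0.739, and 59 of 145 were at 2-fold or more.

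These falls were long transcripts. Their median coding length was 3249 bases, against 1137 over all transcripts and 948 for the 145 rises, and 233 of 290 (80.3%) lay in the longest quartile. An offset that removes each library's trend with coding length left 66 falls and 144 rises. Of the earlier calls, 65 of the 290 falls and 104 of the 145 rises were still called. Between the slices of fish 2, whose DMSO library is not in that fit, only 20 of the 290 were lower with EE2, and their median difference was 1.21. Of all 17930 transcripts, 6267 had the same direction in fish 2 as in that fit. In the other fish 241 to 287 of 290 were lower, with medians from -0.277 in fish 8 to -1.12 in fish 7. The slices of these other fish were in the fit that called the 290, so their direction there is a description only. The EE2 slice of fish 2 was also in that fit, compared through the other slices of that fish. Long transcripts as a whole were also lower with EE2 in most fish. In the longest quartile of all transcripts, the median difference was -0.372 in fish 7, -0.182 in fish 3 and -0.171 in fish 4. It was -0.168 in fish 6 and -0.0649 in fish 8, but 0.0242 in fish 1 and 0.689 in fish 2.

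In libraries outside the comparison the 290 falls did not recur as calls. In Mix 10 nM against BaP 10 nM without the 4 libraries, 0 of the 290 were called (0% of all transcripts fell there). There 218 of 290 were below 0, with a median of -0.0648, while 10255 of all 17930 transcripts had the same sign as with EE2 10 nM. With all libraries kept, 51 of the 290 were below 0 in that contrast, and the median was 0.14. In Mix 1 µM against BaP 1 µM without the 4, 1 of 290 was called, where 0.112% of all transcripts fell. There 64 of 290 were below 0, with a median of 0.151, and 7538 of all 17930 transcripts had the same sign as with EE2 10 nM. Of the 145 rises, 47 and 53 were called in the same contrasts, where 54 and 89 of all 17930 transcripts were called, and their medians were 0.583 and 0.541.

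**Figure D5:**
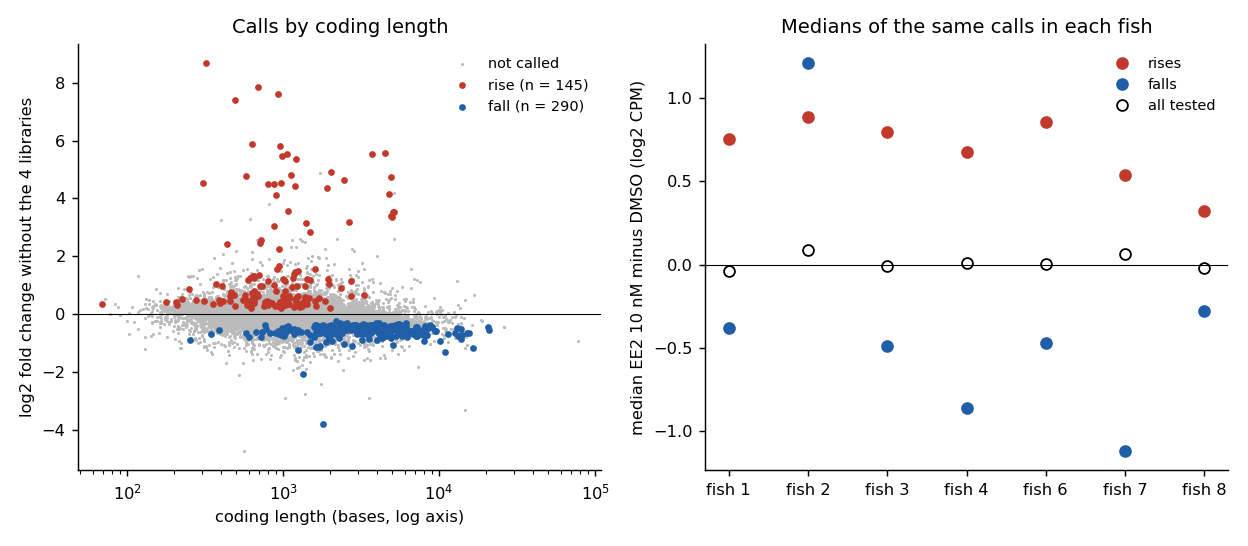
Left, log2 fold change without the 4 deviating libraries by coding length (log axis), with 145 rises in red and 290 falls in blue; the falls gather at long transcripts. Right, the median difference of the same transcripts between the EE2 and DMSO slices of each fish. The median of the falls is below 0 in 6 fish, whose slices were in the fit that gave the calls, and 1.21 in fish 2, whose DMSO slice was left out.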

How the data were processed

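Per the labels' protocols, DNase-treated total RNA was made into libraries with a stranded mRNA kit. The authors deposited whole counts of mapped read segments per transcript, not normalized; FastQC 0.11.5, HISAT2 2.1.0 and SAMtools 1.4.1 are named in the submitters' processing notes, while the build and strand setting are not stated there or in the labels. Segments placed on no transcript (41.8% to 57.9% of a library here) were left out of library sizes and tests. Both mates are counted and reads carry no molecular identifiers, so intervals are too narrow.

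All 47 libraries were fitted with edgeR 4.0.16 in R 4.3.3 (TMM, minimum count 10 and total 15, treatment and fish as terms), and the text reads contrasts of that fit. Fish was a block because a number carries 1 sex and 1 pair of weights in the labels. DMSO and EE2 libraries of 1 fish deviated together (r of 0.156 in fish 2 and 0.437 to 0.802 in the others). Differences within a fish used log2 CPM with a prior count of 2. The SE of a log2 fold change is its absolute value divided by the square root of the quasi-likelihood F. It therefore restates the test and is not a separate measure of spread. Alternatives used DESeq2 1.42.0 and limma 3.58.1. Fits were tested on simulated data. Identifiers were printed by a rule (the largest gain in CPM, the largest fold in 7 of 7 fish among those averaging a log2 CPM of at least 0, and the called fall; no second fall met it). The members, rule and lists were chosen with earlier results of these data known. Gene lists could not be applied without names.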

Additional observations from a re-analysis of the deposited data

Results flagged for a closer look

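Among 26 groups of 4 to 8 values, 3 held a value far from the others, where chance alone marks about 1 in 20. The DMSO slice of fish 3 stood at 5.73 on the log2 CPM scale for ENSGMOT00000018724.1, above the other 7 DMSO slices. Fish 2 had 6717 transcripts that differed at least 2-fold between its slices, more than any other fish. The 290 falls found without the 4 deviating libraries had a median difference of 1.21 in fish 2, while it was below 0 in the other 6 fish. The slices of those 6 fish were in the fit that called these falls, and the DMSO slice of fish 2 was not. Over all transcripts of the longest quartile, where 80.3% of these falls lay, the median in fish 2 was 0.689. The falls were thus chosen partly on these values, so the rate of 1 in 20 does not apply to this flag.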

How the results depend on the processing

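The count of 51 was within 1.5 times in 28 of 38 alternatives. Of the 38, 8 left out a fish and 15 a single library, and of these only the fit without fish 4 moved it further. More of the remaining settings moved the count than kept it. It was 11 with no replicate block, 21 when fish was a random term, 10 when only these groups were fitted (with the block), and 13 there without DMSO of fish 2. It rose to 153 (102 rises, 51 falls) with limma's sample quality weights and to 435 without the 4 deviating libraries. Chosen after the data were seen, the count was 88 without the 3 others, and without all 4 it was 389 with RLE factors (151 rises, 238 falls) and 210 with the length offset. Leaving out a fish gave 32 (fish 4) to 51, and a single library 35 (EE2 10 nM of fish 2) to 53.

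In Mix 10 nM against BaP 10 nM, 41 calls became 6 without the block, 12 with fish random, 9 when only its own groups were fitted and 67 with quality weights, and 26 (without fish 2) to 39 without a fish. Of the 50 rises, 31 called there became 6, 10 and 9 in the first 3 settings and 21 to 32 without a fish. Between the EE2 doses, 0 became 1 with quality weights, 15 without the 4 libraries and 4 when only the compared groups were fitted. The sex interaction had 1 call with DESeq2 and 1 with quality weights. In each case the cause was not tested. ENSGMOT00000018724.1 kept its call in 36 of 38 settings. Transcripts under 3 counts are limited by depth.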

Other observations

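Of 40 transcripts with a fitted difference of at least 8-fold in either direction, 26 were called and 14 were not, 11 of them higher and 3 lower. Among the 11, 5 were higher in 7 of 7 fish and had at least 0.954 CPM on average in DMSO slices. These had coding lengths of 1920, 5052, 1074, 4926 and 4971 bases and log2 fold changes of 4.33, 3.68, 3.57, 3.48 and 3.3, with edgeR adjusted p of 0.0627, 0.0856, 0.178, 0.0883 and 0.173. For those of 1920 and 1074 bases, 1 DMSO slice held 81.9% and 83.1% of the summed DMSO level. For the others the highest DMSO slice held 41.4% to 45.4%. All 5 had their highest EE2 level in fish 8, which held 29.7% to 56.3% of the level summed over the 7 EE2 slices. ENSGMOT00000018724.1 was also highest in fish 8. They were looked up after their values were seen.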
